A study of Mus musculus with 4 samples.

Results

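The trophoblast lineage genes are 10 genes used to recognise the outer cell lineage of the mouse embryo, namely Tead4, Tfap2c, Cdx2, Gata3, Eomes, Elf5, Ascl2, Hand1, Krt8 and Krt18. They were taken by symbol from a table of 24594 genes, and each of the 10 had a row of its own. Their transcripts were measured by poly(A) RNA-seq in mouse ESCs (embryonic stem cells) derived from 129S6/SvEvTac, with 2 wild-type (WT) libraries and 2 libraries from Snf2l knock-out cells, none of them treated. Snf2l is the gene Smarca1, and its product SNF2L is one of the ATPases that power ISWI chromatin remodeling complexes. Both genotypes were grown in serum with leukemia inhibitory factor on gelatin. The study's methods describe each mutant line as a clone made with Cas9, so the effect of the genotype and that of the clone cannot be told apart. The methods call the RNA-seq replicates independent without saying what was repeated, the labels name no separate cultures, and p-values measure only the spread between these libraries.

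Trophectoderm is the epithelium that surrounds the inner cell mass of the blastocyst, and it gives rise to the trophoblast of the placenta. In the embryo, TEAD4 acts with its coactivator YAP in outer cells to switch on Cdx2, and a network of CDX2, GATA3, EOMES, ELF5 and TFAP2C then maintains trophoblast stem cells. ESCs stem from the inner cell mass and normally contribute little to this lineage. Several of the 10 genes are not specific to it, because Tfap2c and Tead4 are transcribed in ESCs and Krt8 and Krt18 in most simple epithelia.

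The libraries held between 13771642 and 15608803 counts. Smarca1 was at 620 and 626 counts in WT against 37 and 31 in the knockout, so that the label of every library matched its targeted transcript. The summed level of 10 ESC markers, among them Pou5f1 and Nanog, was 4864 to 5213 CPM (counts scaled to the library total) in WT and 5207 to 5416 CPM in the knockout. All 10 trophoblast lineage genes together came to 104 to 116 CPM in WT and 154 to 158 CPM in the knockout.

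At the threshold of the study, which asks for an adjusted p-value under 0.01 and more than a 2-fold change, Krt8 and Krt18 rose in the knockout. Hand1 rose as well at an adjusted p-value under 0.05. The remaining tested members, Cdx2, Gata3, Tead4, Ascl2, Tfap2c and Eomes, did not pass either threshold, and Elf5 had too few counts to be tested. The members at the study threshold were therefore 2 of 9 tested, both higher, where 0.571% of the 13840 genes tested were higher, 0.419% were lower and 0.990% were called in either direction. The members were chosen with earlier results of these data known, and the 2 called genes are neighbours on 1 chromosome. Their share is therefore a description only. With an adjusted p-value under 0.05 and no demand on the fold change, 3 of 9 members were higher, where 4.0% of all genes tested were higher and 5.21% were lower. In a fit without chromosomes 8 and Y, chosen after seeing the data, 370 of 13072 genes were higher and 204 lower at this adjusted p-value. The count of members was again 3. In the downward direction edgeR called 0 members at either threshold, 0 members were lower at an unadjusted p-value under 0.05, and DESeq2 also called 0.

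**Figure D1:**
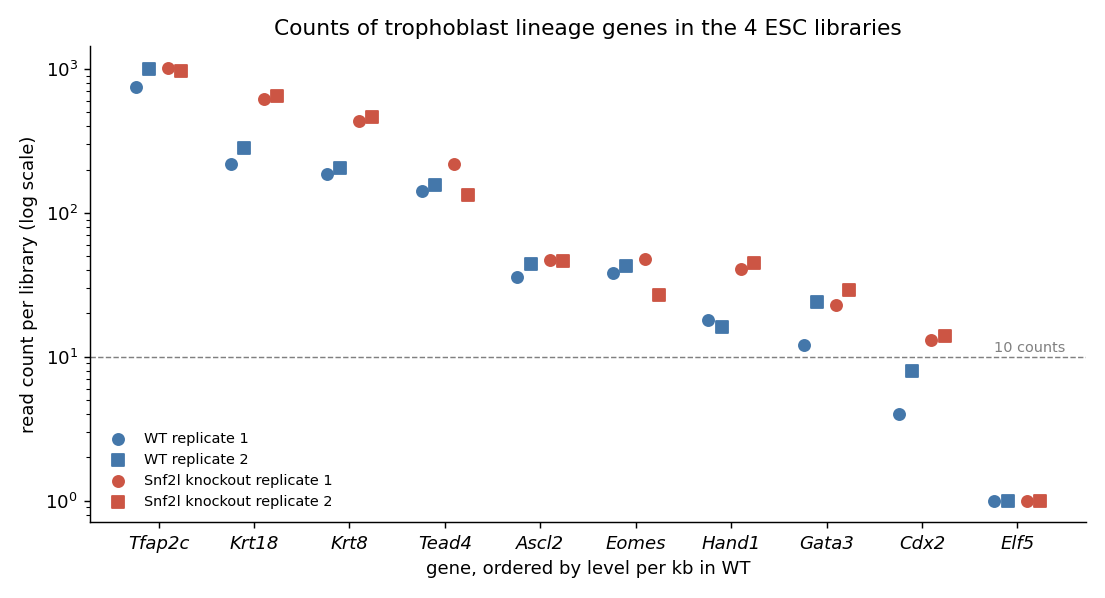
Read counts of the 10 trophoblast lineage genes in each library, on a log axis, with WT in blue and the Snf2l knockout in red, and circles and squares for replicates 1 and 2. Krt8, Krt18, Hand1, Cdx2 and Ascl2 have both knockout libraries above both WT libraries, and Elf5 has 1 count in each library.

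Krt8 and Krt18 code for the type II and type I keratins that pair into the intermediate filaments of simple epithelia, and they are among the earliest filament proteins of the trophectoderm. They lie head to head on chromosome 15, Krt8 (Entrez gene 16691, 101996711 to 102004342) on the minus strand and Krt18 (Entrez gene 16668, 102028216 to 102032026) on the plus strand of mm10. Their RefSeq starts are 23874 bp apart. Since these neighbours rose together, both promoters are shown, from 250 bases before to 50 bases after the RefSeq start of each gene on its own strand (RefSeq, build GRCm38.p6, of which mm10 is the reference assembly). Capitals mark matches to the motifs searched.
Krt8, chr15:102004293-102004592, minus strand: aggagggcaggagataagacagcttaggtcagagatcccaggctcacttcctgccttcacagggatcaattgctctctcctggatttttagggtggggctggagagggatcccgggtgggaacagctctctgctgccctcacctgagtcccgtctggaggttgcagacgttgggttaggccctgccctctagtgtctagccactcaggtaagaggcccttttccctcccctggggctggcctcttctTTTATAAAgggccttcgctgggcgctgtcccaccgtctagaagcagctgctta
Krt18, chr15:102027966-102028265, plus strand: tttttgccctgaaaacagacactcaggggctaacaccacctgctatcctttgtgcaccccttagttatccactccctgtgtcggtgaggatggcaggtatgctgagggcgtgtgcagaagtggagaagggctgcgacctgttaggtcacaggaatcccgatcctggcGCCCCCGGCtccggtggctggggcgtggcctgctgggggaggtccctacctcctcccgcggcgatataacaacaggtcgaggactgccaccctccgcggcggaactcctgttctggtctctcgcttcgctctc

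The motifs searched on both strands were the TATA box TATAAA, the GC box GGGCGG, the TEAD motif CATTCC, the TFAP2 motif GCCNNNGGC, the AP-1 motif TGANTCA and the ETS motif CCGGAA. In the Krt8 window the only match was TATAAA, which overlapped its own match on the other strand, with the first letters at positions -1 and -3 relative to the RefSeq start. The GENCODE start of Krt8 lies 140 bp further upstream than that of RefSeq. In the Krt18 window the only match was the TFAP2 motif at position -83. Among all 32851 promoters of this length, 13.6% hold TATAAA and 16.6% hold the TFAP2 motif. The Krt18 window has 17 CpG dinucleotides and that of Krt8 has 6, beside a median of 7 over all promoters. Of the 10 members, 7 had a promoter in the RefSeq table, and among these the TEAD motif was found only in 1 of the Elf5 windows.

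Krt8 had 186 and 205 counts in WT against 435 and 462 in the knockout. Both knockout libraries were at about the same level and well above both WT libraries. The level rose from 13.5 ± 0.204 to 28.9 ± 1.65 CPM (SD, n = 2 each). On the log2 scale this is a change of 1.10 with an SE of 0.121 (adjusted p = 7.37e-05, by the quasi-likelihood test of edgeR and the Benjamini-Hochberg method over all genes tested).

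Krt18 had 218 and 281 counts in WT against 620 and 650 in the knockout. The genotypes again did not overlap. Its level rose from 17.2 ± 1.64 to 40.9 ± 1.97 CPM (SD, n = 2 each), or by 1.25 on the log2 scale (SE 0.117, edgeR adjusted p = 1.81e-05). For both keratins every difference between a WT and a knockout library was larger than the differences between replicates. On a log2 scale the between-genotype differences were 1.01 to 1.16 for Krt8 and 1.10 to 1.39 for Krt18, and the replicate differences were at most 0.116 and 0.194. Both remained at the study threshold with any 1 library left out and with DESeq2. In bulk RNA, more cells that express a gene and more RNA per expressing cell cannot be told apart.

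**Figure D2:**
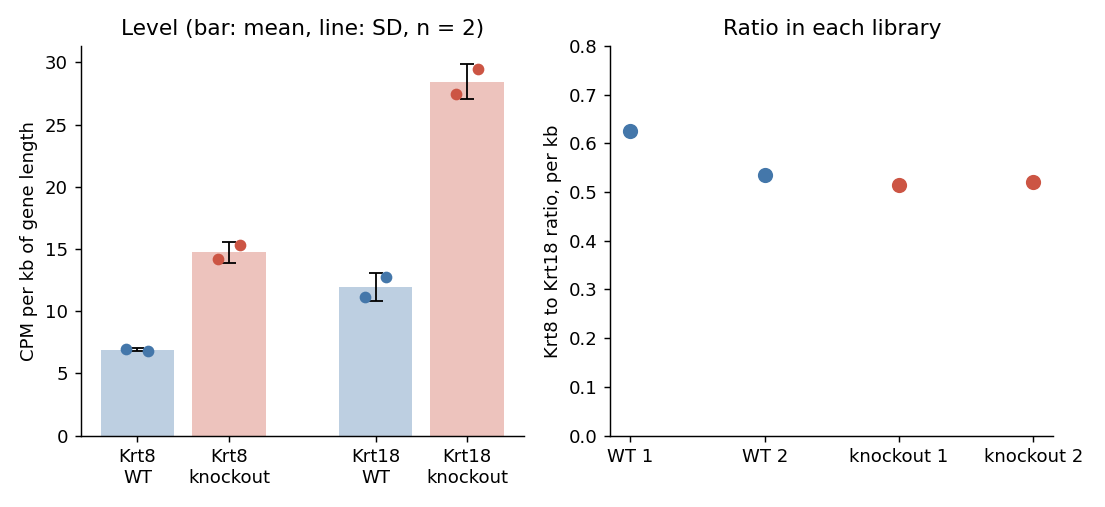
Left, CPM per kb of gene length for Krt8 and Krt18, with bars for the mean of 2 libraries, lines for the SD and points for the libraries. Right, the ratio of Krt8 to Krt18 in each library, which lies between 0.515 and 0.626.

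Because the proteins assemble in pairs, the levels of the 2 transcripts were set against each other per kb of gene length. Krt8 stood at 0.626 and 0.535 times the level of Krt18 in the WT libraries and at 0.515 and 0.522 times in the knockout libraries. The mean ratio was 0.581 ± 0.0642 in WT and 0.518 ± 0.00475 in the knockout (SD, n = 2 each), a difference smaller than the SD of the WT libraries. The exact permutation test of 2 against 2 libraries does not go below a two-sided p of 0.333, and no other test of the ratio was run. Together the pair supplied 27.4% to 28.6% of the summed CPM of the 10 members in WT and 42.7% to 46.9% in the knockout.

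Whether the rise belonged to a wider stretch of chromosome 15 was examined in the tested genes up to 3 Mb on either side of Krt8. Besides Krt8 and Krt18 there were 83, with log2 fold changes from -0.78 to 2.07 and a median of -0.035. At an adjusted p-value under 0.05, 6 were higher and 1 was lower, where 4.0% of all genes tested were higher and 5.21% lower. The 6 higher genes all lay on the Krt71 side of Krt8. Of the 83 only Mettl7a1, named after the values were seen, was at the study threshold, with a log2 fold change of 1.46. The nearest tested genes were Krt71, at -0.24 (SE 0.429), and Eif4b, a translation initiation factor gene, at -0.056 (SE 0.080), with edgeR adjusted p-values of 0.808 and 0.750. Tns2, the next gene beyond Eif4b, was at -0.085 (SE 0.151). The chromosome as a whole had a median of 0.036 over 542 tested genes. Krt7, a type II keratin of simple epithelia and the next tested gene beyond Krt71, is described with its list.

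**Figure D3:**
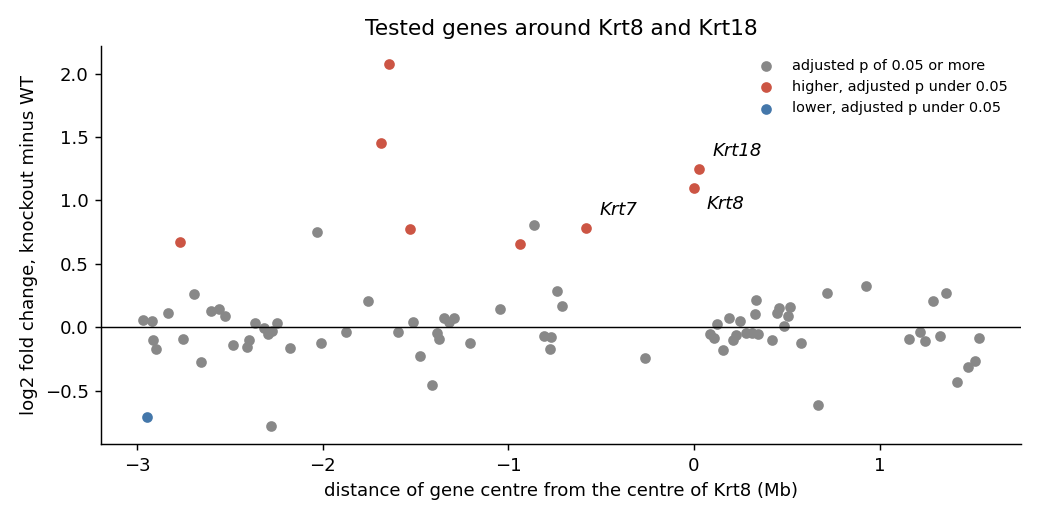
Log2 fold change of each tested gene, knockout minus WT, against the distance of its centre from that of Krt8 in Mb, up to 3 Mb away or to the last tested gene before the chromosome end. Krt8 and Krt18 stand at 1.10 and 1.25, their nearest tested neighbours Krt71 and Eif4b at -0.24 and -0.056, and the 6 other genes called higher, Krt7 among them, all lie to the left of Krt8.

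The keratin genes were then examined as a whole, a set chosen by symbol after the values had been seen. The table held 53 protein-coding keratin genes, of which 11 were tested and 34 had 3 counts or fewer in every library. Of the 11 tested, 3 were higher and 1 was lower at an adjusted p-value under 0.05. Of all genes tested, 4.0% were higher and 5.21% were lower. The higher genes were Krt7 and the pair that prompted this set, Krt8 and Krt18. The lower gene was Krt17, a type I keratin of stratified epithelia on chromosome 11, with 131 and 158 counts in WT against 76 and 63 in the knockout, and the change was -1.16 on the log2 scale (SE 0.168, edgeR adjusted p = 5.60e-04). Krt19, another type I keratin of simple epithelia, had 89 and 88 counts in WT against 93 and 110 in the knockout, and the change was 0.094 on the log2 scale (SE 0.175, edgeR adjusted p = 0.813). Krt8 has a processed pseudogene on chromosome 7, and GENCODE places a long noncoding RNA gene, Gm36026, across its start on the opposite strand. The labels name a stranded library kit and the methods an unstranded one, and it is not stated whether counting used strand, so a part of the Krt8 reads is uncertain.

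Hand1 (Entrez gene 15110, chromosome 11, 57828713 to 57832147) codes for a basic helix-loop-helix factor needed for trophoblast giant cells, which also acts in heart and lateral mesoderm. It had 18 and 16 counts in WT against 41 and 45 in the knockout. Both knockout libraries were above both WT libraries. The level rose from 1.18 ± 0.197 to 2.77 ± 0.223 CPM (SD, n = 2 each), or by 1.23 on the log2 scale (SE 0.283, edgeR adjusted p = 0.0121). The size of the change was like that of the keratins, while the adjusted p-value missed the 0.01 of the study. The call rested on few counts. It was lost without WT replicate 2 (log2 fold change 1.06, edgeR adjusted p = 0.0950) and with DESeq2 (adjusted p = 0.181), and it reached the study threshold without Snf2l knockout replicate 1 (edgeR adjusted p = 6.55e-03) or with at least 10 counts asked of every library (edgeR adjusted p = 8.13e-03). The nearest tested genes on chromosome 11, Sap30l and Larp1, were at 0.34 (SE 0.132) and -0.18 (SE 0.089), with edgeR adjusted p-values of 0.142 and 0.262. Beyond them, 2010001A14Rik was at -0.43 (SE 0.366) and Cnot8 at 0.038 (SE 0.094).

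**Figure D4:**
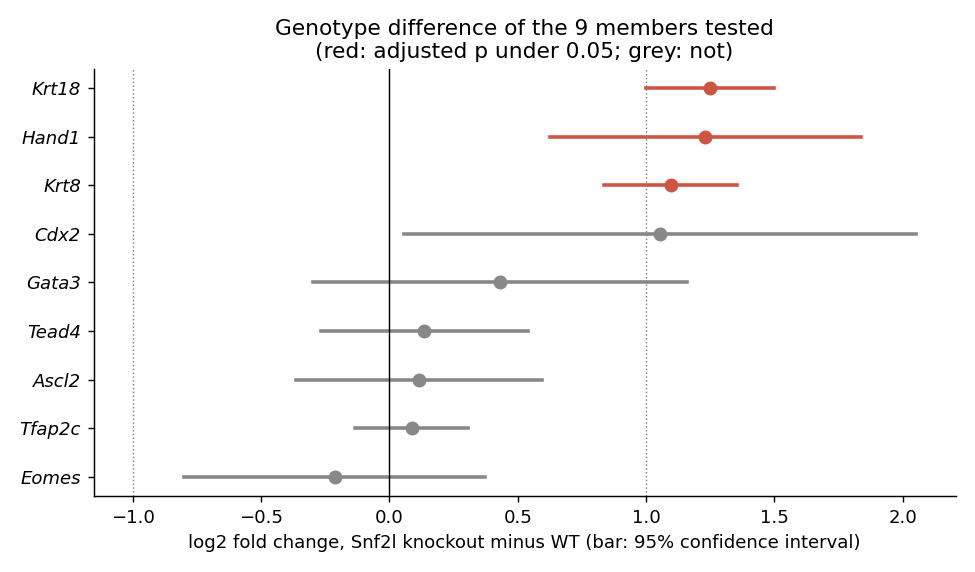
Log2 fold change of the 9 members tested, knockout minus WT, with 95% confidence intervals from the edgeR fit as bars, dotted lines at a 2-fold change, and red for an adjusted p-value under 0.05. The intervals of Krt8 and Hand1 start at 0.84 and 0.62, and those of Cdx2 and Gata3 are the widest.

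Cdx2 (Entrez gene 12591, chromosome 5, 147300900 to 147307249), the caudal-type homeobox factor that specifies trophectoderm, was near the limit of detection. It had 4 and 8 counts in WT against 13 and 14 in the knockout. The knockout libraries were the higher ones, but the gene passed the filter on low counts only through them, so that a difference was built into its being tested. The exact 95% Poisson intervals were 1.09 to 10.2 and 3.45 to 15.8 counts in WT, and 6.92 to 22.2 and 7.65 to 23.5 counts in the knockout, and they overlap. The log2 fold change of 1.05 (SE 0.467, 95% interval 0.056 to 2.05) had an unadjusted p-value of 0.0399 and an adjusted p-value of 0.199 in edgeR. No change of Cdx2 was therefore called. The Poisson intervals cover counting error only, and they take reads as independent, which PCR copies are not.

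Gata3 (Entrez gene 14462, chromosome 2, 9857078 to 9887953), a zinc finger factor that acts beside CDX2 in trophectoderm, had 12 and 24 counts in WT against 23 and 29 in the knockout. In CPM the second WT library lay between the knockout libraries. The WT replicate difference, 0.744 on the log2 scale, was larger than that of 97.2% of the genes tested. The log2 fold change was 0.43 (SE 0.341, 95% interval -0.30 to 1.16, edgeR adjusted p = 0.514). It was 0.097 without WT replicate 1, 0.92 without WT replicate 2, and 0.24 without Snf2l knockout replicate 2, with no call in any of these fits. GENCODE places 3 other genes across Gata3, 2 of them on the opposite strand, so its few reads are uncertain as well.

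Eomes (Entrez gene 13813, chromosome 9, 118478186 to 118486132) codes for a T-box factor of trophoblast stem cells that also acts in mesendoderm. It had 38 and 43 counts in WT against 48 and 27 in the knockout. The knockout libraries lay on either side of the WT libraries. The log2 fold change was -0.21 (SE 0.274, 95% interval -0.80 to 0.37, edgeR adjusted p = 0.718), and without Snf2l knockout replicate 2 it was 0.13. GENCODE annotates an antisense gene, Gm33460, across the end of Eomes.

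Elf5 (Entrez gene 13711, chromosome 2, 103412098 to 103450989), an ETS factor that is methylated and silent in ESCs and marks trophoblast stem cells, had 1 count in each of the 4 libraries. A single count has an exact 95% Poisson interval of 0.0253 to 5.57 counts. Both genotypes were at the floor of 3 counts, and no fold change is given. The exact 95% interval for the ratio of summed counts, knockout to WT, ran from 0.068 to 12.9, counting error only. Differences of Elf5 between genotypes inside this range were not excluded at this depth.

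The 5 members that define the lineage most closely, Cdx2, Eomes, Elf5, Gata3 and Hand1, together made up 5.36 to 6.002 CPM in WT and 7.55 to 8.03 CPM in the knockout. This is 4.89% to 5.19% of the summed CPM of all 10 members in every library. The bulk of the signal of these genes thus came from Tfap2c, Krt8, Krt18, Tead4 and Ascl2.

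Tead4 (Entrez gene 21679, chromosome 6, 128227143 to 128300813), the TEAD factor upstream of Cdx2, had 143 and 156 counts in WT against 219 and 134 in the knockout. Its knockout libraries differed from each other more than the genotypes did. This replicate difference, 0.671 on the log2 scale, was larger than that of 97.0% of the genes tested in the knockout pair, and that of Eomes, 0.756, was larger than that of 97.8%. Tead4 had a log2 fold change of 0.14 (SE 0.189, 95% interval -0.27 to 0.54, edgeR adjusted p = 0.743). Without Snf2l knockout replicate 1 the log2 fold change was -0.24, and without Snf2l knockout replicate 2 it was 0.43.

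Tfap2c (Entrez gene 21420, chromosome 2, 172545678 to 172558622) codes for transcription factor AP-2 gamma, which is used in trophectoderm and in germ cells as well as in ESCs. It had 757 and 996 counts in WT against 1026 and 965 in the knockout. The second WT library lay between the knockout libraries in CPM. With the most counts of all members, it also had the narrowest interval, and the change was 0.087 on the log2 scale (SE 0.103, 95% interval -0.13 to 0.31, edgeR adjusted p = 0.688). This interval excludes a 2-fold change in either direction, as do those of Tead4, Ascl2 and Eomes.

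Ascl2 (Entrez gene 17173, chromosome 7, 142966822 to 142969264), a basic helix-loop-helix factor of spongiotrophoblast, is imprinted and expressed from the maternal allele in the placenta. It had 36 and 44 counts in WT against 47 and 46 in the knockout. In CPM both knockout libraries were just above both WT libraries, by 0.058 to 0.17 on the log2 scale, and the log2 fold change was 0.12 (SE 0.225, 95% interval -0.36 to 0.60, edgeR adjusted p = 0.823). Without Cdx2, for which this was built into the filter, both knockout libraries exceeded both WT libraries for 4 of the 8 tested members (Hand1, Krt8, Krt18 and Ascl2), where 25.2% of all genes tested did so and 25.3% did the opposite. The smallest genotype difference was larger than both replicate differences for 3 of them, Hand1, Krt8 and Krt18, as it was in the same direction for 10.7% of all genes tested.

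Levels were ordered per kb of gene length, as CPM per kb. In WT the order was Tfap2c (16.4 ± 1.80), Krt18 (11.95 ± 1.14), Krt8 (6.90 ± 0.104), Tead4 (2.87 ± 0.0643), Ascl2 (1.72 ± 0.0996), Eomes (0.674 ± 0.00237), Hand1 (0.592 ± 0.0986), Gata3 (0.308 ± 0.122), Cdx2 (0.180 ± 0.0713) and Elf5 (0.0118 ± 0.000989; SD, n = 2 each). The libraries of Gata3 and Cdx2 overlapped, and the means of Eomes and Hand1 differed by less than the SD of Hand1, while the other neighbours in this order were apart. In the knockout Krt18 stood first at 28.5 ± 1.37, above Tfap2c at 17.4 ± 0.4998 and Krt8 at 14.8 ± 0.844, and Hand1 at 1.39 ± 0.112 stood above Eomes at 0.580 ± 0.222. There the libraries of Eomes and Gata3, and those of Gata3 and Cdx2, overlapped. Among all 24594 genes of the table, Krt18 had rank 4840 and 4419 in the WT libraries and rank 2184 and 2085 in the knockout libraries. Elf5 stayed at ranks 17088 to 17271, among genes with hardly any reads.

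The wider set of trophoblast genes was then read from lists. Of 16 genes of the Hippo pathway and other inputs to trophectoderm, all were tested and 2 rose, with 0 lower at an adjusted p-value under 0.05, where 9.21% of all genes tested passed in either direction. The list's median log2 fold change was 0.032, beside 0.00020 over all genes tested. Amotl2, an angiomotin that binds and retains YAP, rose from 57.8 ± 1.08 to 78.7 ± 3.72 CPM, by 0.45 on the log2 scale (SE 0.095, edgeR adjusted p = 7.14e-03). Wwtr1, which codes for the YAP paralog TAZ, rose from 17.5 ± 1.22 to 23.1 ± 0.526 CPM, by 0.41 (SE 0.120, edgeR adjusted p = 0.0484; SD, n = 2 each). Both calls were lost without WT replicate 1 or WT replicate 2, at edgeR adjusted p-values of 0.0522 and 0.0902 for Amotl2 and of 0.101 and 0.332 for Wwtr1, and that of Wwtr1 also without Snf2l knockout replicate 1 (edgeR adjusted p = 0.0671) and with DESeq2 (adjusted p = 0.236).

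Of 12 trophoblast stem cell genes, all tested, 2 rose and 0 fell at an adjusted p-value under 0.05, beside 4.0% and 5.21% of all genes tested. The median was 0.14, beside 0.00020 over all genes tested. Esrrb and Sox2 of this list are also among the ESC markers below, and Bmp4 is also among the mesoderm markers. Plet1, a surface protein gene of the trophoblast stem cell and ectoplacental lineage, had 56 and 72 counts in WT against 142 and 155 in the knockout. The knockout libraries were well above the WT libraries, and the rise of 1.11 on the log2 scale (SE 0.170, edgeR adjusted p = 7.86e-04) passed the study threshold. It kept its call at an adjusted p-value under 0.05 with any 1 library left out and with DESeq2. Bmp4, a ligand that acts on trophoblast and on mesoderm, rose by 0.43 (SE 0.115, edgeR adjusted p = 0.0302), a call lost without WT replicate 1 (edgeR adjusted p = 0.224), without WT replicate 2 (edgeR adjusted p = 0.108) and with DESeq2 (adjusted p = 0.156).

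Among 20 genes of differentiated trophoblast, 10 were tested, of which 2 rose and 1 fell, beside 4.0% and 5.21% of all genes tested. The list summed to 135 to 155 CPM in WT and 99.8 to 112 CPM in the knockout, and Phlda2 alone was at 82.7 and 25.9 CPM. Of the 10 tested genes, 7 were above 0 and 3 below, with a median log2 fold change of 0.32. Of the list genes not tested, 7 had 3 counts or fewer in every library. Of these, 4 were at 0 in all 4 libraries, the syncytin gene Synb and the prolactin family genes Prl3d1, Prl3b1 and Prl2c2. Flt1, a VEGF receptor of spongiotrophoblast and endothelium, had 11 and 19 counts in WT against 51 and 42 in the knockout. It rose by 1.52 on the log2 scale (SE 0.299, edgeR adjusted p = 4.22e-03), which DESeq2 did not call (adjusted p = 0.0549). Sox15, an HMG-box factor of giant cells that is also present in ESCs, rose by 0.82 (SE 0.138, edgeR adjusted p = 1.51e-03). Phlda2, an imprinted gene that restrains placental growth, lies near Ascl2 on chromosome 7 and was at 82.7 ± 6.80 CPM in WT and fell to 25.9 ± 4.20 CPM (SD, n = 2 each), which is -1.68 on the log2 scale (SE 0.120, edgeR adjusted p = 1.13e-06).

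Of 12 further simple epithelial genes, 10 were tested, of which 1 rose and 1 fell, with a median of 0.061. The shares over all genes tested were 4.0% higher and 5.21% lower. The list summed to 948 to 999 CPM in WT and 774 to 778 CPM in the knockout, and Cdh1 alone was at 689 and 477 CPM. Krt7 had 32 and 29 counts in WT against 58 and 55 in the knockout, and its log2 fold change of 0.78 (SE 0.234) was just inside the threshold at an edgeR adjusted p of 0.0497. With any 1 library left out its edgeR adjusted p-value was between 0.0714 and 0.308. Cdh1, which codes for E-cadherin, was at -0.53 (SE 0.083, edgeR adjusted p = 8.43e-04). Cdh1 lies on chromosome 8, where 93.8% of 754 tested genes were below 0 and the median log2 fold change was -0.51, whereas none of the 10 members is on that chromosome.

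**Figure D5:**
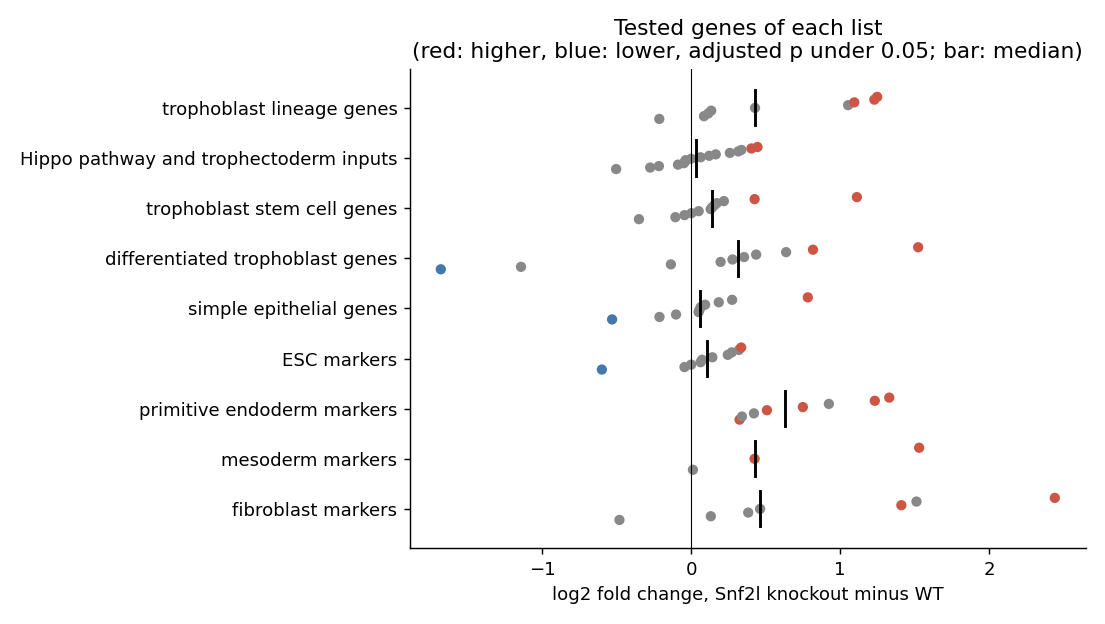
Log2 fold change, knockout minus WT, of every tested gene of the trophoblast lineage genes, 4 related lists and 4 lists of cell type markers, with a bar at the median and red or blue for genes higher or lower at an adjusted p-value under 0.05. The medians run from 0.032 for the Hippo list to 0.63 for the primitive endoderm markers, and that of the trophoblast lineage genes is 0.43 (0.28 without Cdx2).

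Over the 8 members tested besides Cdx2 the median log2 fold change was 0.28, with 7 above 0, and with Cdx2 it was 0.43. Genes of other cell types were also called, where 4.0% of all genes tested were higher and 5.21% lower at an adjusted p-value under 0.05. Of 10 primitive endoderm markers, an extraembryonic lineage that also uses Krt8 and Krt18, 8 were tested and 5 rose, a count that was 1 with DESeq2, 2 without WT replicate 1, 1 without WT replicate 2 and 3 without Snf2l knockout replicate 1. They include Pdgfra (1.33, SE 0.256, edgeR adjusted p = 3.73e-03), Gata6 (1.23, SE 0.319, edgeR adjusted p = 0.0236), Gata4 (0.75, SE 0.199, edgeR adjusted p = 0.0276) and Dab2 (0.51, SE 0.145, edgeR adjusted p = 0.0391). The calls of Gata6, Gata4 and Dab2 were each lost without WT replicate 1 (edgeR adjusted p = 0.0576, 0.107 and 0.220), without WT replicate 2 (0.0639, 0.101 and 0.0971) and with DESeq2, those of Gata6 and Gata4 also without Snf2l knockout replicate 2 (0.199 and 0.0834) and that of Dab2 without Snf2l knockout replicate 1 (0.0667). The summed level of the list was 182 to 224 CPM in WT and 256 to 278 CPM in the knockout, and Afp was at 0 in every library. Most of the sum came from Lama1, which was not called, and Lamb1. They were at 68.4 and 118 CPM in WT and at 91.5 and 148 CPM in the knockout.

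Of 10 mesoderm markers, 3 were tested and 2 rose, Kdr by 1.53 (SE 0.291, edgeR adjusted p = 3.43e-03) and Bmp4, whose call was lost as given above. The list summed to 21.7 to 22.5 CPM in WT and 30.3 to 31.5 CPM in the knockout, with Mesp1 and Msgn1 at 1 count or 0 in every library. Of 10 fibroblast markers, 7 were tested and 2 rose, the collagen genes Col1a1 by 1.41 (SE 0.162, edgeR adjusted p = 9.18e-05) and Col3a1 by 2.44 (SE 0.407, edgeR adjusted p = 1.37e-03). Col3a1, with 4 and 8 counts in WT against 29 and 42 in the knockout, passed the filter on low counts only through the knockout libraries, and 1 call was left with at least 10 counts asked of every library. This list summed to 15.3 to 16.2 CPM in WT and 27.8 to 29.4 CPM in the knockout, and Lum was at 0 in every library. Of the 10 ESC markers, all tested, Klf4 rose by 0.34 (SE 0.094, edgeR adjusted p = 0.0359) and Zfp42, which lies on chromosome 8, was at -0.60 (SE 0.083, edgeR adjusted p = 3.80e-04), with a list median of 0.11. The call of Klf4 was lost without WT replicate 1 (edgeR adjusted p = 0.241), without WT replicate 2 (edgeR adjusted p = 0.188), without Snf2l knockout replicate 1 (edgeR adjusted p = 0.142) and with DESeq2 (adjusted p = 0.0554). The part that other cell types had in the rise of Krt8, Krt18 and Hand1 was not tested.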

How the data were processed

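Poly(A) RNA-seq was analysed for 2 WT and 2 Snf2l knockout ESC libraries. The authors had aligned reads to mm10 with QuasR and HISAT2 and deposited raw read counts per Entrez gene over UCSC Known Genes, with a gene length in bp. No per-sample column was left without a sample. Symbols and positions came from RefSeq GRCm38.p6 (24570 of 24594 genes matched) and overlapping genes from GENCODE M21.

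In R 4.3.3, counts were filtered with filterByExpr (minimum count 10), scaled by TMM and tested by genotype with the quasi-likelihood test of edgeR 4.0.16 in its legacy form, two-sided, with p-values adjusted over 13840 genes. Confidence intervals are 95%. Pair differences between libraries used log2 CPM with a prior count of 2. The test was checked on simulated counts. Alternatives were other scalings and filters, DESeq2 1.42.0, other edgeR fits, a replicate block, leaving out each library, and setting chromosomes 8 and Y aside, the last chosen after seeing the data.

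Named genes are the 10 members, Smarca1, up to 4 called genes of each list by size of change, and 2 tested neighbours on each side of a called member. The members and lists were chosen with earlier results of these data known.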

Additional observations from a re-analysis of the deposited data

How the results depend on the processing

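The count of members at the study threshold was 2 or 3 and that of members with an adjusted p-value under 0.05 was 2 or 3 under every alternative run, with Hand1 as the gene that moved. In fits without 1 library, the lone library of a genotype is assumed to vary like the others. Leaving out 1 library turned the sign of members that were not called, whose log2 fold changes then ranged from -0.67 to 0.13 for Eomes, from -0.24 to 0.43 for Tead4 and from -0.019 to 0.20 for Tfap2c. For Smarca1 these fits gave -4.41 to -4.19. Members with too few counts numbered 0 with a filter of at least 1 count in any library and 2 with at least 10 counts in every library, which sets Cdx2 aside beside Elf5, by the construction of these filters. The Krt8 to Krt18 ratio was 0.791 in WT and 0.706 in the knockout without gene length.

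In the 4 lists related to trophoblast, 9 genes had an adjusted p-value under 0.05. There were 5 with DESeq2, 5 with chromosomes 8 and Y left out, 20 with the replicate block and 5 to 12 with 1 library left out, the lowest without WT replicate 1. The cause was not tested. Over all genes, 137 were at the study threshold, 83 with DESeq2 and 223 with the replicate block. At an adjusted p-value under 0.05 there were 1274, 738 with DESeq2, 3471 with the replicate block, 829 without WT replicate 1, 1932 without Snf2l knockout replicate 1 and 574 with chromosomes 8 and Y left out.

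Same-numbered libraries deviated together with a correlation of 0.196 across genes, and 2 pairs do not show that the numbers pair the samples. With the replicate block Hand1 reached the study threshold (edgeR adjusted p = 4.74e-04), and no call of another member changed. Counts limit Elf5, Cdx2 and Gata3 most.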
